A study of Arabidopsis thaliana with 3 samples.

Results

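The cells described here were sorted lateral root primordium cells of Arabidopsis thaliana that held transcripts of PBP1 (AT3G16420) or NAI2 (AT3G15950), 2 genes of the ER body system. A plate well was kept as a cell when at least 500 genes had a read, which left 322 of 573 wells. Of these, 66 had at least 1 read of PBP1 or NAI2, or 20.5% (exact 95% interval 16.2 to 25.3%), and are called PBP1/NAI2 cells below; the other 256 had no read of either. All cells came from Columbia-0 seedlings carrying the pHB53:NLS-3xmCherry reporter, a nuclear triple mCherry driven by the promoter of the homeobox gene HB53. Roots were taken at 5 days after germination and digested to protoplasts, and mCherry-positive protoplasts were sorted; the labels assign them to primordium stages I to IV. There was no treatment and no second genotype. The labels name 3 replicates, but no column of the count table could be tied to one of them, so all wells stand as 1 sample. For that reason no test was made and no p-value is given. Intervals cover counting error only, and because reads carry no stated molecular identifiers they are not independent molecules.

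ER bodies are spindle-shaped compartments of the endoplasmic reticulum found in plants of the Brassicales, and Arabidopsis roots are rich in them. They store beta-glucosidases, above all PYK10, which can act on indole glucosinolates as myrosinases do. NAI1 is a transcription factor of the basic helix-loop-helix family that is needed for ER bodies and for PYK10 expression, NAI2 is an ER body component needed for their formation, and MEB1 and MEB2 are ER body membrane proteins. PBP1 is a jacalin-related lectin outside the ER body that binds PYK10 when cells are broken, together with other jacalin lectins (JAL) and GDSL lipase-like proteins (GLL), which is called the PYK10 complex here.

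Reads of the rule genes, PBP1 and NAI2, chose the cells, and NAI1 belongs to a family that binds E-boxes. The 250 bases before the annotated start of the rule genes and of PYK10, the main ER body beta-glucosidase, are therefore shown. They come from RefSeq's TAIR10.1 annotation and are written 5′ to 3′ on the gene's strand, with each E-box, CANNTG, in capitals.
NAI2 (chr3:5402654-5402903, minus strand): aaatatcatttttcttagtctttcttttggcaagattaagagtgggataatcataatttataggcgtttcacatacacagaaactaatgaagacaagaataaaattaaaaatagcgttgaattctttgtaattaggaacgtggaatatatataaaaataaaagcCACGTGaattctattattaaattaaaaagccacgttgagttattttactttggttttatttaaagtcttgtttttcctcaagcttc
PBP1 (chr3:5579040-5579289, plus strand): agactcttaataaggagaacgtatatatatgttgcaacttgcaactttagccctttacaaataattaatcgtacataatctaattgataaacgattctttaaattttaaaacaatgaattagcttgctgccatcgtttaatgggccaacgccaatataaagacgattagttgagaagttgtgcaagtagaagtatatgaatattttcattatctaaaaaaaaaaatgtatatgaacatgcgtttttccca
PYK10 (chr3:2843782-2844031, minus strand): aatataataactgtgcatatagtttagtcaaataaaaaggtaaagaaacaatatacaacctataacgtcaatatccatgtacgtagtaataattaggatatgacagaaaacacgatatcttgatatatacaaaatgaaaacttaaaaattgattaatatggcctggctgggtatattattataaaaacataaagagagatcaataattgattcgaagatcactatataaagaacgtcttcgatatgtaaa
The single E-box of the NAI2 stretch is also a G-box, CACGTG, and the stretches of PBP1 and PYK10 hold neither motif. Both motifs read the same on either strand, and a G-box is counted as an E-box as well. Among 13 such stretches, those of PBP1, NAI2 and the 11 ER body and PYK10 complex genes called higher below, 1 held a G-box (7.69%) and 6 an E-box (46.2%). Of the 27443 protein-coding genes of the annotation, 6.49% held a G-box and 55.3% an E-box in a stretch of that length, so the shares among the ER body genes were close to those of all genes.

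PBP1 reads were found in 39 cells (12.1%, interval 8.76 to 16.2%) and NAI2 reads in 52 (16.1%, 12.3 to 20.6%). Both were found in 25 cells, PBP1 alone in 14 and NAI2 alone in 27. NAI2 was thus detected in 25 of 39 cells with PBP1 (64.1%) and in 27 of 283 without it (9.54%). Each flow cell showed this: 13 of 17 against 5 of 85 cells on the first, 5 of 10 against 6 of 86 on the second, and 7 of 12 against 16 of 112 on the third. As these reads define the cells, they are a description.

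Within the cells that had reads of it, PBP1 ranged from 4.61 to 4890 CPM (reads scaled to the same total in every cell, in parts per 1000000) with a median of 395, and NAI2 from 13.2 to 2253 CPM with a median of 301. PBP1 exceeded 1000 CPM in 9 cells, while 3 cells had fewer than 3 of its reads. For NAI2 these numbers were 6 and 2 cells. The reads were concentrated, since 3 cells gave 60.4% of the 14762 PBP1 reads; their PBP1 levels were 3909, 3992 and 4890 CPM, all on the first flow cell. Over the 25 cells with both genes, Spearman's correlation of PBP1 and NAI2 CPM was 0.69, and over all 66 cells it was 0.17. The rule leaves no cell without both genes among the 66, which lowers the second value. It is therefore no measure of how the genes vary together. Each pair of values shares a library and its depth.

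**Figure D1:**
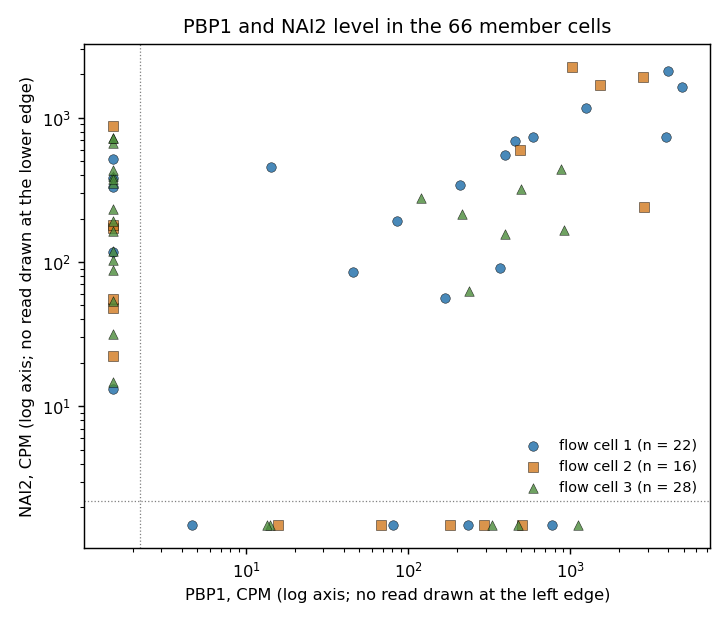
CPM of PBP1 (x axis) and NAI2 (y axis) in the 66 PBP1/NAI2 cells on log axes, with 1 point per cell and symbols by flow cell; cells without a read of a gene lie beyond the dotted line. The 25 cells with both genes run from low to high in both, and the 3 cells highest in PBP1 come from the first flow cell.

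Cells at the edge of the rule were few. A single read of PBP1 made 1 cell a PBP1/NAI2 cell and a single read of NAI2 another, against 0 reads in the cells outside it. Among the 251 wells under the limit of 500 genes, PBP1 was found in 4 (1.59%) and NAI2 in 1 (0.398%), and these wells had a median of 3922 reads. PBP1/NAI2 cells were found on every flow cell, 22 of 102 (21.6%), 16 of 96 (16.7%) and 28 of 124 (22.6%), and on every plate, from 16.0 to 28.3% of its cells.

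PBP1/NAI2 cells had more detected genes than the others, with a median of 4628.5 against 3956.5, and a median of 229034 reads against 248066. Each was therefore paired within its flow cell with 1 cell that had no read of either gene and a similar number of detected genes. All 66 found a partner, and the matched cells had a median of 4666.5 genes and 207380 reads. Organelle genes took a median of 2.80% of reads in PBP1/NAI2 cells and 2.22% in matched cells.

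A total of 16242 genes were measured, meaning that their reads in the compared cells came to 10 or more and were spread over 5 or more of the cells. A gene is called higher or lower here when its mean CPM differed 2-fold or more and in the same direction on every flow cell. By this rule 9.41% of the genes were called higher in PBP1/NAI2 cells and 9.9% lower, with a median log2 fold of -0.03 over all of them. Against all 256 other cells, without matching, 19372 genes were measured, 4.91% were called higher and 14.9% lower. Those shares are the background against which the counts below are to be read. For 90% of the genes the share of cells with a read differed by no more than 15.2 percentage points either way. A gene with too few reads to be measured is not called in either direction.

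Most measured genes of the rest of the ER body system were called higher in the PBP1/NAI2 cells. Of 21 ER body and PYK10 complex genes other than PBP1 and NAI2, 12 were measured and 11 of these were called higher and 0 lower, with a median log2 fold of 3.44. JAL22 and JAL31, both counted here, had reads in 0 matched cells. They were measured through the PBP1/NAI2 cells alone and could not be called lower. The folds of JAL22 and JAL31, with the matched group set at 3 reads, enter the median. NAI1, MEB2 and JAL33, also called higher, had reads in 3, 4 and 4 matched cells. They too were measured only with the PBP1/NAI2 cells, and their folds enter the median as well. Against all 256 other cells 16 were measured, 10 were called higher and 1 lower, and the median log2 fold was 1.65. At least 2 of the 21 genes were detected in 89.4% (79.4 to 95.6%) of PBP1/NAI2 cells, 51.5% (38.9 to 64.0%) of matched cells and 52.0% of all 256 others. With each cell thinned to 115851 reads, which kept 48 PBP1/NAI2 cells and 209 others and left out 18 and 47 shallower ones, the shares were 91.7% and 51.2%.

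Among the 21 genes, PYK10 had the highest mean level in PBP1/NAI2 cells. PYK10 (AT3G09260), the main ER body beta-glucosidase of roots, had reads in 58 of 66 PBP1/NAI2 cells (87.9%) and in 24 of 66 matched cells (36.4%). Where it had reads, its level ran from 2.72 to 11714 CPM with a median of 1465 in the PBP1/NAI2 cells and from 2.11 to 1975 with a median of 186 in the matched cells. The ranges overlapped, and mean PYK10 CPM over all cells of a group was 1936 against 151, a log2 fold of 3.68 that was 3.85, 4.62 and 2.95 on the 3 flow cells. BGLU22 (AT1G66280), a close relative of PYK10, had reads in 65.2% against 34.8% of cells, with a mean of 215 against 85.6 CPM and a log2 fold of 1.33. The related genes BGLU18, BGLU19, BGLU20 and BGLU21 had reads in 0 to 3 PBP1/NAI2 cells each and were not measured.

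NAI1 (AT2G22770), the regulator, was detected in 22 PBP1/NAI2 cells (33.3%, interval 22.2 to 46.0%) and in 3 matched cells (4.55%, 0.947 to 12.7%). Its level was low, with a mean of 24.1 against 1.20 CPM and a log2 fold of 4.33. Of all 256 other cells, 16 had NAI1 reads (6.25%), and the log2 fold against these 256 was 2.47. Where NAI1 had reads, its median was 39.4 CPM in PBP1/NAI2 cells and 60.4 CPM in the 256 others. After thinning, NAI1 was detected in 41.7% of PBP1/NAI2 cells and 6.22% of the others. Of the membrane proteins, MEB2 (AT5G24290) was detected in 12 PBP1/NAI2 and 4 matched cells and was called higher (log2 fold 2.77), whereas MEB1 (AT4G27860) had reads in 14 and 11 cells and a log2 fold of -0.19 and was not called. TSA1 (AT1G52410), a relative of NAI2, had reads in 1 PBP1/NAI2 cell and in 8 of all 256 others, against which it was called lower (log2 fold -2.45).

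Among the lectins, JAL34 (AT3G16460) had the largest difference in detection of all 16242 measured genes, with 47 PBP1/NAI2 cells (71.2%) against 8 matched cells (12.1%). Detected JAL34 levels ran from 21.1 to 1087 CPM with a median of 352 in the PBP1/NAI2 cells and from 7.97 to 124 CPM with a median of 30.2 in the matched cells. In all 256 other cells they reached 662 CPM with a median of 53.5, and the log2 fold was 3.77. By flow cell JAL34 was found in 16, 10 and 21 PBP1/NAI2 cells against 1, 3 and 4 matched cells. JAL35 (AT3G16470) had reads in 68.2% against 21.2% of cells (log2 fold 3.20), and JAL33 (AT3G16450) in 28.8% against 6.06% (5.32). The JAL33 log2 fold was 6.29, 4.63 and 2.66 on the flow cells. The 3 cells highest in PBP1 gave 1178, 1710 and 608 of the 4814 JAL33 reads in PBP1/NAI2 cells. JAL22 (AT2G39310) and JAL31 (AT3G16430) were each found in 10 PBP1/NAI2 cells and in 0 matched cells, which allows up to 5.44% of matched cells by the exact interval. Their reads came to 967 and 590 in the PBP1/NAI2 cells. Of all 256 other cells, 3 had JAL22 (1.17%), 1 of them at 3027 CPM, and 1 had JAL31 (0.391%). Mean JAL22 was 35.8 CPM in the PBP1/NAI2 cells and 11.9 CPM in these 256, a log2 fold of 1.59. The lipase-like genes differed less, with GLL22 (AT1G54000) in 45.5% against 28.8% of cells (log2 fold 1.10) and GLL25 (AT1G54030) in 28.8% against 9.09% (1.87). GLL22 lost its call in 4 of the 15 alternatives tried, among them the comparison with all other cells (log2 fold 0.83). JAL23 and GLL23 had no read in any PBP1/NAI2 cell.

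**Figure D2:**
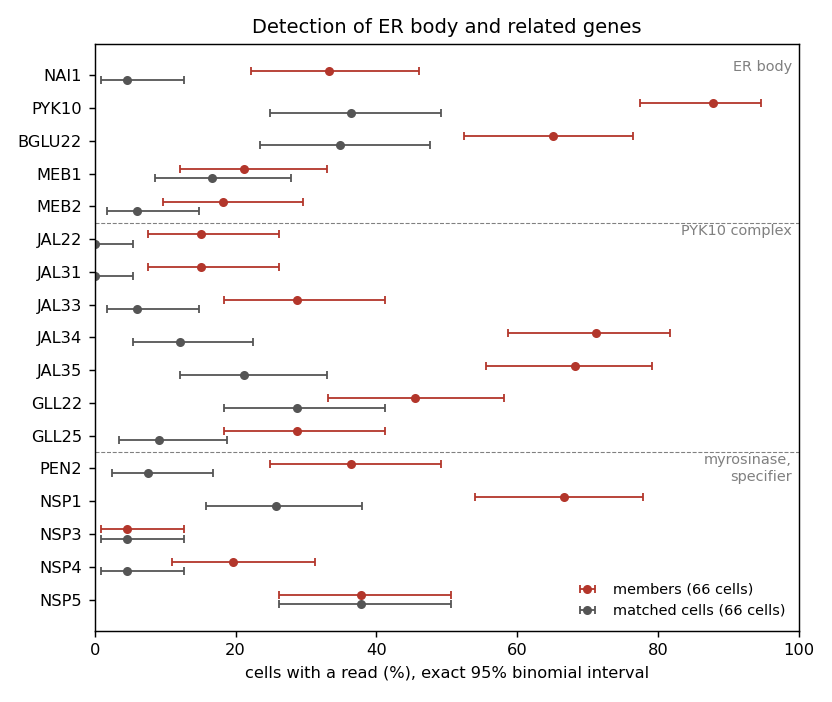
Share of cells with a read (x axis, percent) for each measured gene of the ER body, PYK10 complex and myrosinase and specifier lists, in the 66 PBP1/NAI2 cells (members, red) and 66 matched cells (grey), with exact 95% binomial intervals. JAL34 (71.2 against 12.1%) and PYK10 (87.9 against 36.4%) lie farthest apart, while NSP3 and NSP5 coincide.

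PBP1/NAI2 cells made up a larger share of the cells that had more of the other ER body genes. PBP1/NAI2 cells had reads of a median of 5 of the 21 genes and at most 11, and matched cells a median of 2 and at most 10. Counted the other way, 3 of the 61 cells with none of the 21 genes were PBP1/NAI2 cells (4.92%), 4 of the 69 with 1 gene (5.80%), 10 of the 98 with 2 or 3 genes (10.2%), 20 of the 56 with 4 or 5 genes (35.7%) and 29 of the 38 with 6 or more (76.3%). Median gene number rose along these groups as well, from 3064 to 5549. Of the 168 cells with PYK10, 58 were PBP1/NAI2 cells (34.5%), against 8 of the 154 without PYK10 (5.19%).

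**Figure D3:**
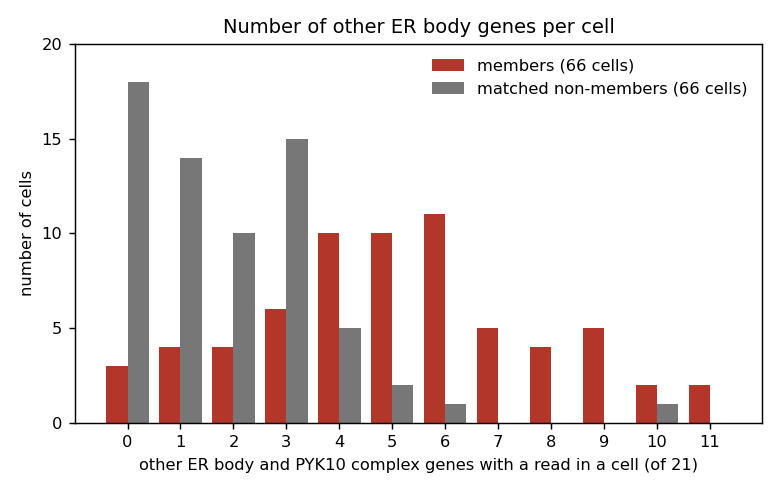
Number of cells (y axis) by how many of the 21 other ER body and PYK10 complex genes had a read in the cell (x axis), for PBP1/NAI2 cells (members, red) and matched cells (grey), 66 each. PBP1/NAI2 cells peak at 6 genes with 11 cells, and matched cells at 0 with 18 cells.

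Cells with both rule genes most often had many of the other genes. At least 4 of the 21 other genes were detected in 24 of the 25 cells with both, 8 of the 14 with PBP1 alone and 17 of the 27 with NAI2 alone. PYK10 was found in 25, 8 and 25 of these cells, at mean levels of 3454, 1025 and 1003 CPM. JAL33 was found in 13 of 25, 4 of 14 and 2 of 27 cells of these classes. Depth differed too: median gene numbers were 5446, 3316.5 and 4319 and median reads 328623, 187825 and 135055 in the 3 classes, and its part in these differences was not tested.

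**Figure D4:**
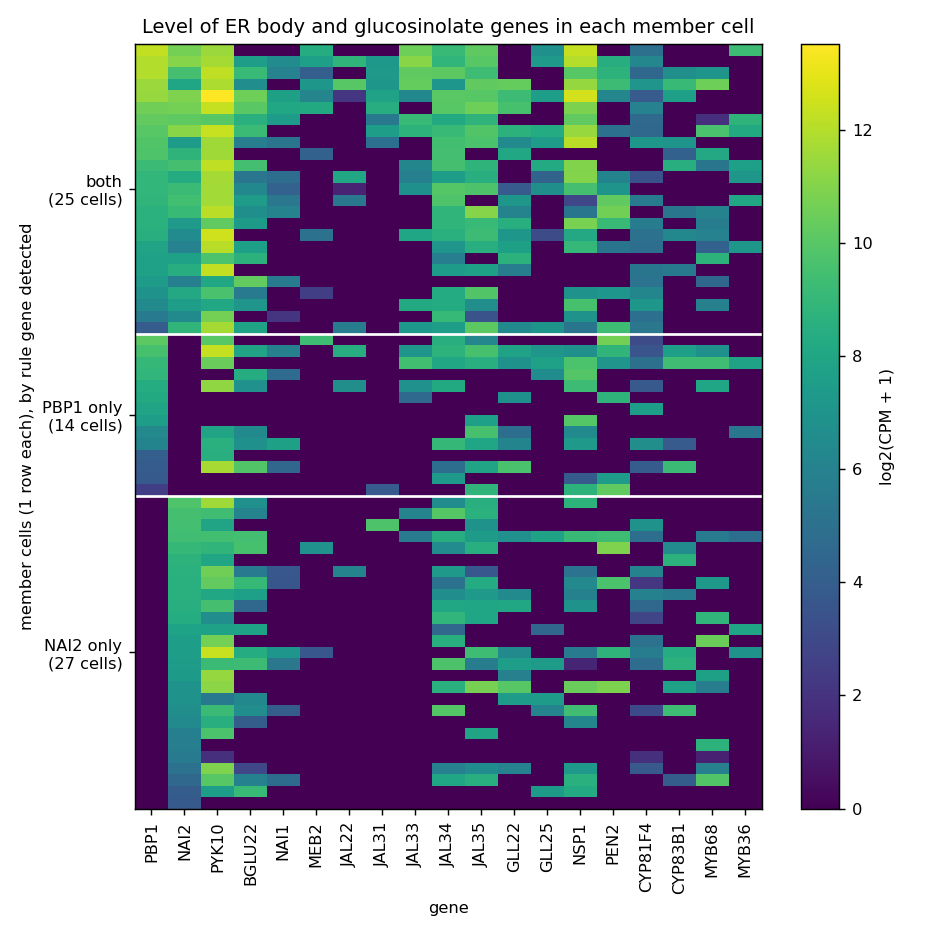
Level, as log2(CPM + 1), of 19 genes (columns) in each of the 66 PBP1/NAI2 cells (rows), grouped by the rule gene detected and ordered by PBP1 and then NAI2 level. The 25 cells with both genes have PYK10 without exception. JAL31 and MEB2 are mostly dark in every group, and JAL33 in the 14 cells with PBP1 alone and the 27 with NAI2 alone.

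Several of these genes lie side by side on chromosome 3, where the annotation places NSP3, NSP1, NSP4, PBP1, JAL31, AT3G16432, AT3G16440, JAL33, JAL34 and JAL35 in 1 run of protein-coding genes. NSP1, NSP4, JAL31, JAL33, JAL34 and JAL35 were called higher. NSP3 was found in 3 cells of each group and the flanking MPPalpha in 34.8% against 33.3% of cells (log2 fold 0.06), and neither was called. Reads could in part be shared between neighbours: JAL34 and JAL35 overlap in the annotation, with 18.8% and 23.9% of the 150-base windows of their transcripts in common, and NSP1 and NSP4 share 13.8% and 11.0% of theirs. The sources used here do not say how strand and shared reads were counted. PBP1 and JAL31 are 88.4% identical in coding sequence but have no window of 150 bases, the read length, in common. Their most alike stretch of 150 bases differs at 4 bases, in capitals, and is shown because PBP1 reads chose the cells:
PBP1 (bases 577 to 726 of the coding sequence, chromosome 3): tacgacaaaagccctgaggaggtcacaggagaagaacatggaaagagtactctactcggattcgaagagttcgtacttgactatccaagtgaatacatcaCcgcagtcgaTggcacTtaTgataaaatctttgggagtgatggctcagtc
JAL31 (bases 571 to 720 of the coding sequence, chromosome 3): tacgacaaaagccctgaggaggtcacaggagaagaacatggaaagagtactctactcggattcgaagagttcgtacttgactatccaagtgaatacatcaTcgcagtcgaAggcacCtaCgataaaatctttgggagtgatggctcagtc
JAL31 reads were found in 8 of the 25 cells with both rule genes, 1 of the 14 with PBP1 alone and 1 of the 27 with NAI2 alone, so 30 of the 39 cells with PBP1 reads had none of JAL31.

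Enzymes and proteins that act on glucosinolates were partly higher. Of 13 myrosinases and specifier proteins, 5 were measured, 3 were called higher and 0 lower, with a median log2 fold of 2.18. NSP1 (AT3G16400), a nitrile specifier protein that directs the products of glucosinolate breakdown, had reads in 66.7% against 25.8% of cells, with a mean of 699 against 67.6 CPM and log2 folds of 3.23, 3.65 and 3.23 on the flow cells. PEN2 (AT2G44490), an atypical myrosinase of indole glucosinolates, was detected in 24 against 5 cells (log2 fold 2.90). NSP4 was called higher, but 1 cell gave 74.1% of its reads. NSP5 had reads in 37.9% of the cells of both groups, and the classical myrosinases TGG1, TGG2, TGG4 and TGG5 in 0 or 1 PBP1/NAI2 cell each.

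Most measured genes of indole glucosinolate synthesis and transport were called higher as well: of 20, 19 were measured, 14 were called higher and 0 lower, and the median log2 fold was 2.25. MYB122, counted among the genes called higher, had no read in matched cells, so it could not be called lower. Against all other cells 11 of 19 were called higher and 0 lower. CYP79B2 (AT4G39950) and CYP79B3 (AT2G22330), which convert tryptophan to its oxime, had mean levels of 275 against 4.87 CPM and 214 against 5.77 CPM, though reads in only 14 and 10 PBP1/NAI2 cells. In all 256 other cells their means were 42.4 and 26.3 CPM, which gave log2 folds of 2.70 and 3.02. CYP83B1 (AT4G31500), the next enzyme, was found in 31.8% against 3.03% of cells (log2 fold 5.30), and SUR1 (AT2G20610), the C-S lyase, in 57.6% against 31.8% (1.93). CYP81F4 (AT4G37410), which hydroxylates the indole ring, was found in 60.6% against 12.1% (2.23), in 15, 9 and 16 against 3, 3 and 2 cells on the flow cells. The methyltransferases IGMT1 and IGMT5, which methylate hydroxylated indole glucosinolates, had log2 folds of 4.56 and 2.29. MYB34, a regulator of the pathway, had reads in 10 against 1 cells (3.57), and the transporter gene GTR1 in 77.3% against 56.1% (1.02). MYB34 was not called against all other cells, and GTR1 lost its call in 4 of the 15 alternatives. SOT16 and MYB122 lost theirs in 5 each, and MYB122, SOT16, IGMT1, IGMT2 and GTR2 were not called after thinning. IGMT1 was then detected in 10.4% of PBP1/NAI2 cells and 3.35% of the others. CYP79B2, CYP79B3, CYP83B1, SUR1, CYP81F4 and IGMT5 kept their call in all 15. GGP1, PEN3, CYP81F3, UGT74B1 and MYB51 were not called. Of 9 aliphatic glucosinolate genes, 2 were measured; SOT17, a sulfotransferase, was called higher with reads in 7 against 1 cells, and SOT18 was not called.

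General genes of the endoplasmic reticulum stayed near the background. Of 16 ER chaperone and unfolded protein response genes, 15 were measured, 1 was called higher, PDIL1-2, and 0 lower, with a median log2 fold of 0.10. BIP1 and BIP2, the main luminal chaperones, had reads in 60.6% of PBP1/NAI2 cells each and in 62.1% and 66.7% of matched cells.

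Jasmonate, wounding and stress genes were measured because jasmonate induces ER bodies in leaves and because protoplasts are wounded cells. Of 23 jasmonate genes 17 were measured; JAZ6 (45.5% against 19.7% of cells) and MYC3 (57.6% against 40.9%) were called higher and AOC2 lower, with a median log2 fold of 0.28. Against all other cells 0 of 19 measured jasmonate genes were called higher and 3 lower. Of 8 protoplasting and stress response genes, all measured, WRKY33 (81.8% against 63.6%) and ERF5 (31.8% against 15.2%) were called higher and 0 lower, and the median was 0.70. Against all other cells 0 of the 8 were called in either direction. The summed level of these 8 genes ran from 0 to 8312 CPM with a median of 2001 in PBP1/NAI2 cells and from 0 to 6980 with a median of 1413 in matched cells; its part in the other differences was not tested. Among 9 heat shock genes, all measured, only HSP22 was called higher, with 1 cell giving 89.9% of its reads, and 0 were lower (median 0.29).

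Markers of other tissues were counted to see which cells the group could hold. All 4 measured pericycle genes of 6 were called higher, with a median log2 fold of 2.69: the phosphate exporter gene PHO1 in 47.0% against 31.8% of cells (1.93), the potassium channel gene SKOR in 16.7% against 6.06% (3.45, with 65.1% of its reads from 1 cell), the nitrate transporter gene NPF7.3 in 19.7% against 3.03% (4.04) and MYB68 in 39.4% against 12.1% (1.65). The calls were not equally stable: MYB68 lost its call in 4 of the 15 alternatives, PHO1 with cells chosen by PBP1 alone, NPF7.3 after thinning, and SKOR in none. Against all other cells 6 pericycle genes were measured, 4 were called higher and 1 lower. AHP6, found in 4 matched cells, was at 0 in the PBP1/NAI2 cells. Summed pericycle level had a median of 129 CPM (0 to 7876) in PBP1/NAI2 cells and 0 (0 to 1270) in matched cells. Of 17 endodermis genes 4 were measured; SCR was called higher (19.7% against 12.1%, log2 fold 2.35), 0 were lower, and the median was 2.27. MYB36, which switches on Casparian strip genes, had reads in 12 against 3 cells and a log2 fold of 2.19 and was not called. The defining barrier genes CASP1 and CASP2 had reads in 1 PBP1/NAI2 cell each, and CASP4 and CASP5 were at 0. Summed endodermis level had a median of 2.89 CPM (0 to 3287) against 0 (0 to 547). Whether pericycle or endodermis identity accounts for the ER body genes was not tested.

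Markers of outer tissues had reads in few cells. Of 3 cortex genes 1 was measured and none was called (median log2 fold 2.05), and of 4 root cap genes none was measured, with reads in 0 or 1 PBP1/NAI2 cell each. Of 12 epidermis and root hair genes, CPC alone was measured and was called lower (log2 fold -1.62); WER and GL2, which define the epidermis, were at 0 in PBP1/NAI2 cells. Root hair genes did have reads in a few of them: PRP1 in 3 cells against 1 matched cell, EXPA7 and LRX1 in 2 against 0, EXPA18, RHD6, RSL4 and PRP3 in 1 against 0, and COBL9 in 1 against 1. At least 2 genes of this list were detected in 4.55% of PBP1/NAI2 cells, 1.52% of matched cells and 3.91% of all others, and 1 PBP1/NAI2 cell had reads of 8 of the 12, against at most 2 in a matched cell. Their summed level ran from 0 to 6668 CPM in PBP1/NAI2 cells and from 0 to 463 CPM in matched cells, with a median of 0 in both, and its part in the other differences was not tested. Of 8 quiescent centre and stem cell niche genes 3 were measured and none was called (median -0.32).

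Most measured phloem genes and some vascular precursor genes were called lower. Among 11 phloem genes, 10 were measured, 7 were called lower and 0 higher, with a median log2 fold of -3.69. Of those called lower, PEAR1, PEAR2, BRX, SMXL5 and NAC020 had reads in fewer than 5 PBP1/NAI2 cells. They were measured only with the matched cells, where they were higher, and their folds enter the median. NAC020, an early phloem regulator, had reads in 2 PBP1/NAI2 cells and 15 matched cells, OPS in 17 and 34, SMXL5 in 2 and 13, and PEAR2 in 1 and 9. At least 2 phloem genes were detected in 18.2% against 43.9% of cells. Of 10 vascular precursor genes 9 were measured and TMO5, PHB and HB15 were called lower, 0 higher, with a median of -1.33. TMO5 lost its call in 4 of the 15 alternatives, while against all other cells 7 of 10 measured genes of this list were called lower. PHB, a class III homeodomain gene, had reads in 10.6% against 39.4% of cells, with a mean of 15.5 against 133 CPM (log2 fold -3.11).

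Regulators of the primordium were called in both directions, more often lower. Of 23, 19 were measured, 3 were called higher (LBD33, PLT7 and ACR4) and 5 lower (IAA28, IAA12, ARF5, HB53 and WOX11), with a median log2 fold of -0.79. Against all other cells 20 were measured, 1 was called higher and 8 lower. PLT7 lost its call in 6 of the 15 alternatives, LBD33 in 3 and ACR4 in 2. Of the lower genes, ARF5 lost its call in none and IAA28, IAA12, HB53 and WOX11 in 1 each. IAA28, an auxin response repressor of founder cell specification, had reads in 47.0% against 71.2% of cells, and ARF5, an auxin response factor, in 18.2% against 33.3%. HB53, whose promoter drives the reporter, had reads in 5 against 7 cells (7.58% against 10.6%).

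Some cell cycle genes were called lower. All 13 S phase genes were measured, 6 were called lower and 0 higher, with a median log2 fold of -1.06; against all other cells 4 of the 13 were called lower. The replication helicase genes MCM2 (10.6% against 31.8% of cells), MCM3 (9.09% against 24.2%) and MCM4 (10.6% against 33.3%) were among them. At least 2 S phase genes were detected in 36.4% of PBP1/NAI2 cells, 66.7% of matched cells and 48.0% of all other cells, and in 37.5% against 47.4% after thinning, so the difference was smaller against unmatched cells. Of 18 G2 and M phase genes 10 were measured, 4 were called lower and 0 higher (median -2.74); AUR1, an Aurora kinase of mitosis, had reads in 2 against 11 cells.

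Genes outside the lists were named by the difference in share of cells with a read, for the 12 highest and 12 lowest called genes with no cell giving over 50% of the reads in the group with the higher level. JAL34, PYK10, JAL35, NSP1 and CYP81F4 are among the 12 higher genes and were given above. EULS3 (AT2G39050), another lectin, had reads in 59.1% against 10.6% of cells (log2 fold 4.02). FMO GS-OX4 (AT1G62570), an S-oxygenase of aliphatic glucosinolates, was found in 90.9% against 47.0% (1.51), and GSTF9 (AT2G30860), a glutathione S-transferase, in 87.9% against 47.0%, with a mean of 1837 against 176 CPM (3.38). The remaining higher genes were the peroxidase gene AT4G36430 (57.6% against 13.6%), DOF4.1 (AT4G00940, a DOF factor, 60.6% against 19.7%), AGP24 (AT5G40730, an arabinogalactan protein, 56.1% against 15.2%) and LAC8 (AT5G01040, a laccase, 72.7% against 33.3%).

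Among the 12 lower genes, AGF1 (AT4G35390), an AT-hook protein of gibberellin feedback, had reads in 27.3% against 69.7% of cells, in 7, 4 and 7 against 16, 11 and 19 cells on the flow cells (log2 fold -1.88). Nucleolar and chromatin genes were among them: the nucleolin gene NUC-L1 (AT1G48920, 33.3% against 68.2%), the NOP56-like gene AT5G27120 (19.7% against 53.0%), the histone H3.1 gene AT5G65360 (13.6% against 51.5%) and the histone H2A gene HTA11 (AT3G54560, 22.7% against 54.5%). In all 256 other cells these 4 genes had reads in 51.6, 36.7, 31.6 and 35.5% of cells, so the differences were smaller there. NUC-L1 and AT5G27120 lost their call after thinning, and AT5G65360 in 6 of the 15 alternatives. The cell wall genes AGP31 (AT1G28290, 30.3% against 66.7%) and AT4G24780 (a pectin lyase-like protein, 9 against 33 cells) were lower too. The other lower genes were SAUR30 (AT5G53590), MAKR5 (AT5G52870), LYM1 (AT1G21880), RIP1 (AT3G15000) and AT5G13880, with reads in 12.1 to 40.9% against 45.5 to 72.7% of cells. All 12 higher genes kept their call under each of the 15 alternatives tried, and among the lower ones AGF1, AGP31 and HTA11 did.

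**Figure D5:**
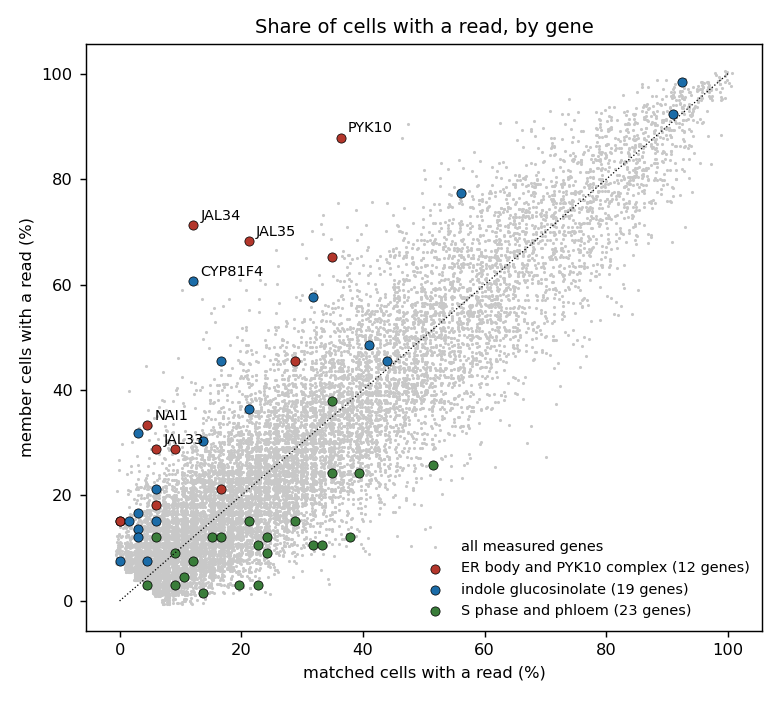
Share of matched cells (x axis, percent) and of PBP1/NAI2 cells (member cells, y axis, percent) with a read, with 1 point per measured gene; grey points are moved by up to 0.6 points at random for visibility, and the dotted line marks equal shares. ER body and PYK10 complex genes (red) and most indole glucosinolate genes (blue) lie above the line, and most S phase and phloem genes (green) below it.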

How the data were processed

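The deposited table holds raw counts, made by the authors, of 32833 genes in 573 wells, from 6 plates sequenced on 3 flow cells. Reads were single-end and 150 bases long, per the labels, and the submitters' processing notes name TAIR10 as the build; aligner, counting rule and strand setting are not given in these sources. RefSeq's TAIR10.1 tables gave names (32548 IDs matched), neighbours, motifs and sequences; the count table holds no coordinates. Reads of a well were divided by its total and scaled to CPM, and mean CPM weighted each cell equally. Partners were chosen within a flow cell for the least total difference in log2 gene number (at most 0.2; the largest was 0.17). A group without a read stands at 3 reads over the group in medians and calls; such a fold is no bound and is not given. Thinning drew reads to percentile 20 of totals with seed 1. The method was tested on simulated counts of genes with many reads only, so that test does not cover genes with few reads. Each column is 1 plate well, so doublets were not called, and wells with more than 1 cell were not looked for.

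The 20 gene lists (246 genes) and the cells themselves were chosen with earlier results of these data known, so they are no independent evidence. Named genes are the 12 called higher and the 12 called lower with the largest difference in share of cells with a read, without genes where 1 cell gave over 50% of the reads of the higher group, plus genes of the lists that were measured or detected in at least 10% of cells; a few named below that share were named after their values were seen. Alternatives covered matching, filters, the rule, depth, scaling and each flow cell. Python 3.11.15, numpy 2.4.6, pandas 2.3.3, scipy 1.17.1 and matplotlib 3.10.9 were used.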

Additional observations from a re-analysis of the deposited data

Results flagged for a closer look

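PBP1 reads were also present outside the cells compared. Wells with fewer than 500 detected genes held 946 PBP1 reads in 4 of 251 wells, with 592, 217, 103 and 34 reads, and these wells had 231, 178, 151 and 27 detected genes. PYK10 reads were found in 3 of the 4 (150, 560 and 339 reads). There are no control wells in the table.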

How the results depend on the processing

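No paired analysis was possible because no column of the table carries a replicate number. The PBP1/NAI2 cells exceeded the reference in the share with at least 2 other ER body genes by 37.9 percentage points, and by 29.5 to 44.2 points under all 15 alternatives. Against all other cells without matching, 951 genes were called higher and 2884 lower and the median log2 fold of the ER body genes was 1.65, against 1529, 1608 and 3.44; with no filter on low counts the median was 1.65. Leaving out flow cells asks for agreement on 2 flow cells in place of 3: without each flow cell in turn 2131 to 2317 genes were called higher and 2083 to 2530 lower (2317 and 2446 without the second), the median was 3.30 to 3.94, and 38 to 50 PBP1/NAI2 cells were left (19.2 to 22.1% of cells). The share difference turned for PHO1 with cells chosen by PBP1 alone (-2.56 points), for PLT7 after thinning (-2.13) and for CDT1A without flow cell 1 (2.27); the cause was not tested. BGLU22 was not called without flow cell 1, MEB2 not with cells chosen by NAI2 alone, and JAL33 not after thinning. Without the 3 cells highest in PBP1, an alternative chosen after seeing the data, 1515 genes were called higher and 1605 lower, and the ER median was 3.29. Of 89 called genes named or listed, 66 kept a call after thinning and 70 against all other cells. Detection of genes near 1 read a cell is limited by depth.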

Other observations

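Some cells without a read of PBP1 or NAI2 also held ER body genes. Of the 256 cells without either, 110 had PYK10 reads (43.0%), at a median of 271 CPM, and 9 had reads of 6 or more of the 21 other ER body and PYK10 complex genes. Of the 60 cells with PYK10 above 1000 CPM, 35 were PBP1/NAI2 cells (58.3%, exact interval 44.9 to 70.9%). A cell without a read of PBP1 or NAI2 is not shown to lack the transcript.

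Across the 66 PBP1/NAI2 cells, the level of NSP1 had a Spearman correlation of 0.62 with JAL35 and 0.54 with PBP1, and over the 30 cells with both PBP1 and NSP1 it was 0.75. PYK10 level correlated with JAL35 (0.61), JAL34 (0.57) and the number of detected genes (0.35). These values share cells, libraries and depth, and are descriptions.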
